A study of Mus musculus with 18 samples.

Results

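The 10 genes followed here encode enzymes that oxidise ethanol to acetaldehyde, acetaldehyde and other aldehydes to acids, and acetate to acetyl-CoA. They were taken by symbol (Adh1, Adh4, Adh5, Aldh2, Aldh1a1, Aldh1b1, Aldh3a2, Cyp2e1, Cat and Acss2), and all 10 were found among the 23930 genes of the panel. The libraries came from mouse liver and number 18, with 3 in each of 6 groups. Every mouse carried Yap fl/fl, the controls and the overexpressing mice included, and received a virus under the TBG promoter, which acts in hepatocytes, when it was 8 weeks old. Control mice were given AAV-TBG-GFP (dose 2), knockout mice AAV-TBG-Cre (dose 0.5) and overexpressing mice AAV-TBG-YAP-P2A-EGFP (dose 2), with doses on the labels' common scale of genome copies, so that knockout and dose of virus cannot be told apart. Feeding began 2 weeks later with 5 days on control liquid diet. Ethanol-fed mice then had 4 weeks of Lieber-DeCarli ethanol diet and a gavage of ethanol (5 g/kg, 33% v/v), while pair-fed mice stayed on the control diet and were gavaged with maltose-dextrin. All were killed 9 hours after the gavage. Whether the 3 libraries of a group came from 3 animals is not stated, and p-values measure the spread between these libraries, which may be technical in part.

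Hepatocytes clear most ingested ethanol. The cytosolic alcohol dehydrogenases (ADH) pass its hydrogen to NAD+, the cytochrome P450 enzyme CYP2E1 oxidises it in the endoplasmic reticulum with NADPH and oxygen, and catalase can oxidise it in peroxisomes at the expense of hydrogen peroxide. The acetaldehyde formed is toxic and is removed mainly by the mitochondrial aldehyde dehydrogenase ALDH2. Acetate leaves the liver for the most part, and ACSS2 is the cytosolic and nuclear enzyme that can activate it to acetyl-CoA. CYP2E1 is well known to rise in protein with chronic drinking, largely because ethanol protects the protein from breakdown. YAP is the transcriptional coactivator at the end of the Hippo pathway.

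At the depth of these libraries, 1 read is worth 0.172 to 0.214 CPM, the unit of read counts brought to the same total in every library, and the lowest value of any of the 10 enzymes rested on 18 reads. Markers of hepatocytes (Alb, Apoa1, Ttr, Tat and Cps1) were read in every library, at a summed level of 42530 to 73900 CPM in control and knockout mice and 35950 to 43930 CPM in overexpressing mice. Yap1 was at 51.5 to 66.6 CPM in the 6 control libraries, 3.34 to 15.1 CPM in the 6 knockout libraries and 106.4 to 214 CPM in 5 of the 6 overexpression libraries. In pair-fed overexpression replicate 1 it was 57.6 CPM, at the level of the controls, so this library did not show the overexpression its label gives. The labels do not state sex. All 3 pair-fed knockout libraries, and replicates 2 and 3 of the pair-fed controls, had 348 to 423 CPM of Xist, which is read from the inactive X chromosome, and the other 13 libraries had reads from the Y chromosome (Ddx3y 54.0 to 128.8 CPM) and at most 2.75 CPM of Xist. These sets are called libraries with Xist reads and libraries with Y-linked reads. Of the first, pair-fed control replicate 2 also had 3.47 CPM of Ddx3y, and the other 4 had none. The ethanol response of knockout mice and this pattern of sex chromosome genes therefore cannot be told apart. The response of control mice is mixed in the same way in part, and that of overexpressing mice and all genotype comparisons on the ethanol diet are matched. Genotype comparisons on the pair-fed diet are not matched. Nor are the averages and the differences in ethanol response, which use the pair-fed controls.

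**Figure D1:**
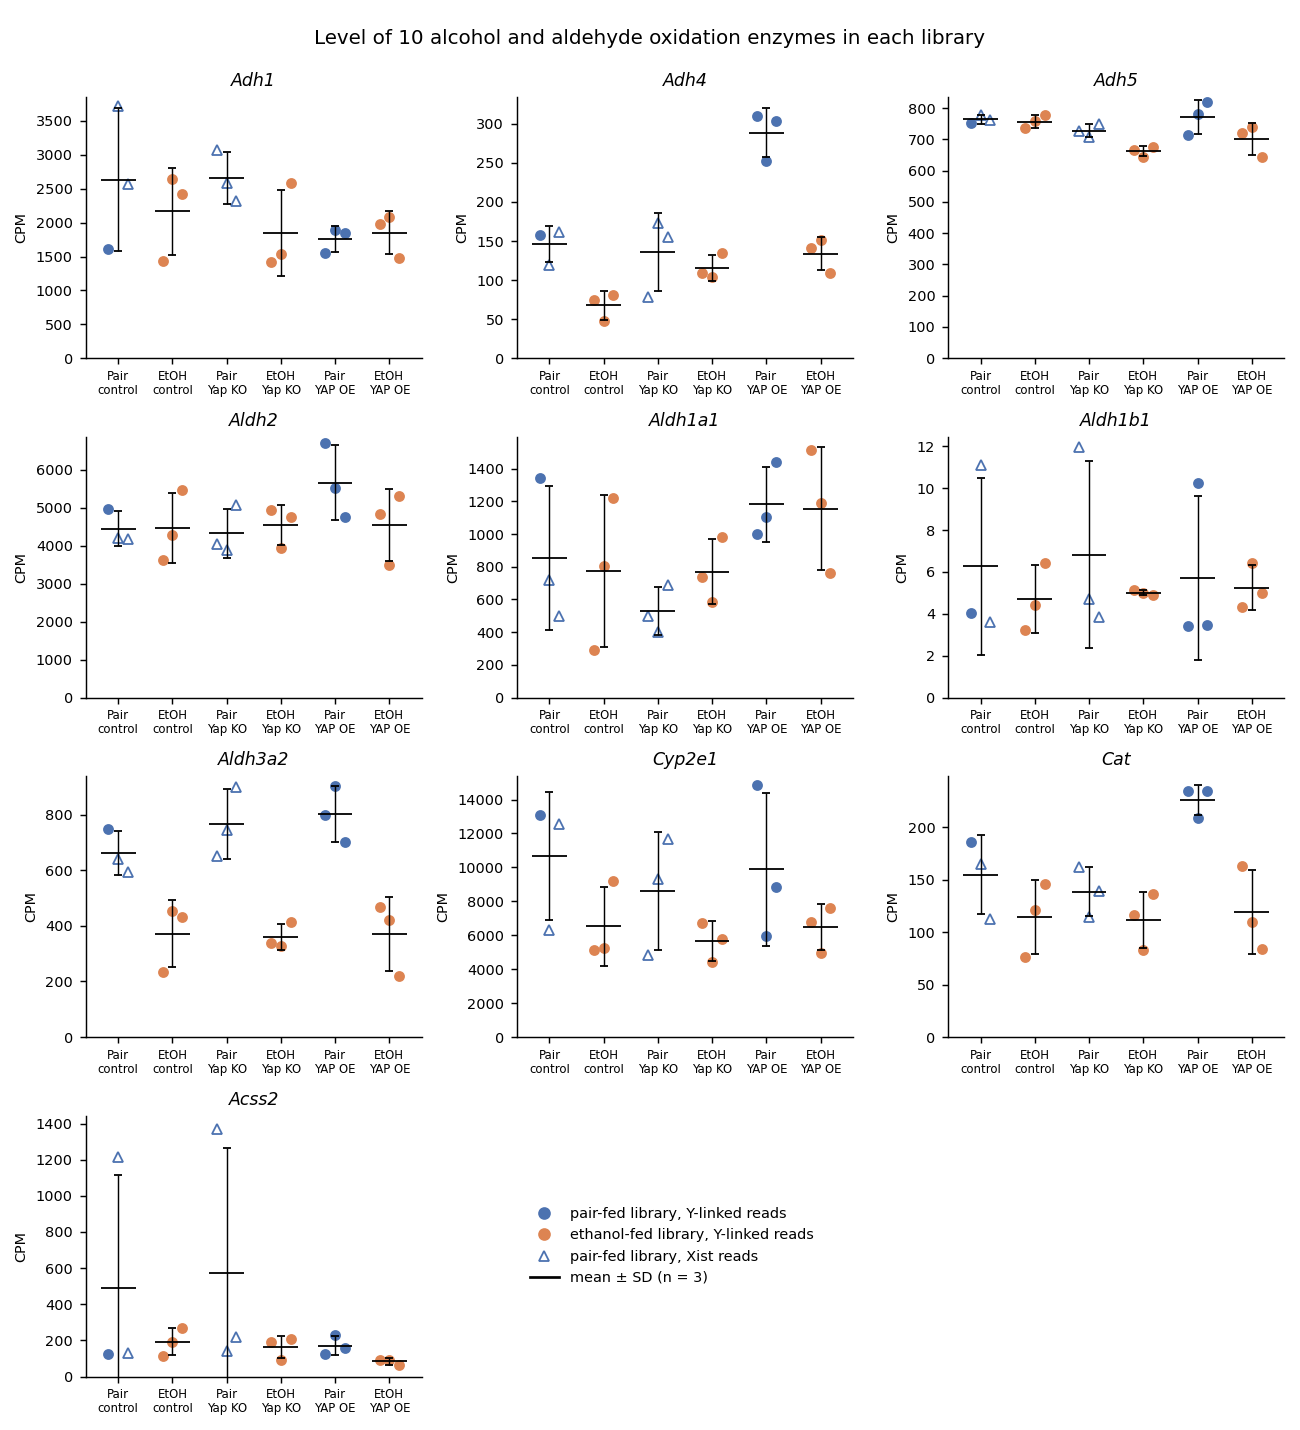
Level of each of the 10 enzymes (CPM, linear axes from 0) in every library of the 6 groups. Points are libraries, blue for pair-fed and orange for ethanol-fed, with open triangles for the 5 libraries at 348 to 423 CPM of Xist; bars are the mean ± SD (n = 3), cut at 0 for Acss2. All 9 pair-fed libraries lie above all 9 ethanol-fed libraries for Aldh3a2, pair-fed overexpression stands highest for Adh4, and Adh5 has the narrowest span (1.27-fold).

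Levels are read from 1 amplicon per gene, so they are compared between libraries and not between genes. The enzymes differed widely in how steady they were. Adh5 ranged from 645 to 821 CPM over all 18 libraries, a 1.27-fold span, and Aldh2 from 3502 to 6714 CPM, a 1.92-fold span. Acss2 spanned 21.5-fold, from 63.6 to 1368 CPM, and Adh4 6.59-fold, from 47.1 to 310 CPM.

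Ethanol feeding lowered 2 of these enzymes in at least 1 genotype, Adh4 and Aldh3a2, and no enzyme rose. In control mice Adh4 alone passed the test (1 of 10 enzymes; 2.7% of the 11720 genes tested passed). In knockout mice Aldh3a2 alone passed (1 of 10, against 9.9% of all genes). In overexpressing mice both passed (2 of 10, against 1.15%). The test was limma's moderated test on log2(CPM + 1), adjusted by Benjamini-Hochberg over all genes, and an adjusted p under 0.05 counts as passing. The log2 changes were below 0 for 10 of the 10 enzymes in control mice (median -0.35, against -0.09 over all genes), for 8 in knockout mice (median -0.28 against -0.05) and for 8 in overexpressing mice (median -0.43 against -0.07). Of all genes, 58.7%, 54.4% and 57.5% were below 0. With TMM scaling the counts of enzymes were 8, 8 and 7. They were 6, 7 and 8 when the model held a term for sex chromosome genes. The pair-fed controls are the only group with both patterns, so that term rests on their replicates 2 and 3 against replicate 1. Without the filter on low values none of these 4 calls passed, with TMM scaling and in edgeR only that of Aldh3a2 in knockout mice did, and in DESeq2 all 4 did.

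An average of the 3 genotypes' responses was added after the data had been seen. In it Aldh3a2, Adh4 and Cat fell (3 of 10 enzymes, where 20.5% of all genes passed and 13.3% passed as lower). Aldh3a2 changed by -1.05 ± 0.15 (log2 ± SE, adjusted p = 0.000173), Adh4 by -0.80 ± 0.15 (0.00102) and Cat by -0.58 ± 0.15 (0.0113). When a term for the sex chromosome genes was in the model, Aldh3a2 alone still passed (-1.20, adjusted p = 0.0431), with Adh4 at -0.90 (0.123) and Cat at -0.83 (0.158).

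The stretch upstream of the start is shown for the 3 enzymes that fell in the average, from RefSeq's table of promoters on GRCm38.p6, which matched 9 of the 10 enzymes, not Aldh2. Bases inside annotated exons were left out of the print. Capitals mark the motifs found. The core site of PPAR and related nuclear receptors was searched as TGACCT. The CCAAT box was searched by those letters. The GC box was searched as GGGCGG, and the E-box as CACGTG. Both strands were searched, a match on the other strand stands as its reverse complement, and sequences run 5′ to 3′ in the direction of the gene.
Adh4, chr3:138415247-138415455, plus strand: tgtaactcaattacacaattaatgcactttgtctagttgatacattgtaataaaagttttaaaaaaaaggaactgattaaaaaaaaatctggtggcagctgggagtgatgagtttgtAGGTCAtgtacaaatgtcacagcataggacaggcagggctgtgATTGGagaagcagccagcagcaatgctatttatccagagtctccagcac
Aldh3a2, chr11:61267187-61267238, minus strand: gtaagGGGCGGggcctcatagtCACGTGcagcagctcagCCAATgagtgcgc
Cat, chr2:103485161-103485403, minus strand: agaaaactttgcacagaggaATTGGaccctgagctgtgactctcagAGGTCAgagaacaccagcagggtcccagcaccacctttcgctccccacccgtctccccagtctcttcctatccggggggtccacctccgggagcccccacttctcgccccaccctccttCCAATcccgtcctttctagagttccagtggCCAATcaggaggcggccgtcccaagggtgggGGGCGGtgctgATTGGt
The Adh4 and Cat windows of 250 bases both held the nuclear receptor core, at -133 and, beyond the printed stretch, at -11 from the start in Adh4 and at -204 in Cat, which 14.0% of 32851 promoter windows of that length did. The CCAAT box lay at -90 in Adh4, at -13 in Aldh3a2 and at 4 places in Cat (33.8% of windows). Aldh3a2 had 1 GC box (32.7%) and 1 E-box (6.02%), and Cat had 1 GC box. CATTCC, the core of the site for TEAD factors with which YAP acts, was not among the letters of these 3 windows and was in 12.6% of all windows. Nor were TATAAA (the TATA box, 12.4%), TTGCNNAA (C/EBP, 9.56%), CAAAGTCCA (HNF4, 0.384%), the HNF1 site (0.371%), TCACNCCAC (SREBP, 1.05%) and TTANGTAA (the D-box bound by Dbp, 2.06%). A motif without a match is missing from these letters only, which says nothing of the factor. Base composition differed, with 41.6% G and C and 1 CG in the Adh4 window against 61.2% and 18 in that of Aldh3a2 and 62.0% and 9 in that of Cat (medians of all windows 52.4% and 6). These matches describe letters and show neither binding nor use.

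**Figure D2:**
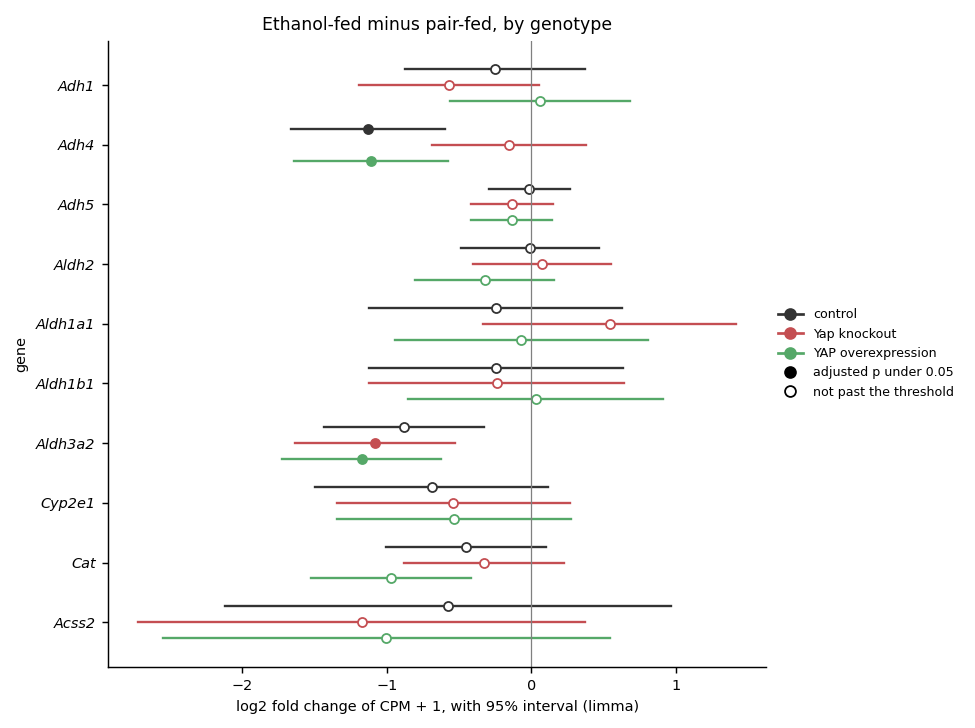
Log2 fold change of CPM + 1 with ethanol (ethanol-fed minus pair-fed) for each enzyme, with its 95% interval from limma, in control (black), knockout (red) and overexpressing (green) mice. Filled points have an adjusted p under 0.05: Adh4 in control and overexpressing mice, and Aldh3a2 in knockout and overexpressing mice.

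Adh4 encodes a class II alcohol dehydrogenase, which oxidises ethanol at high concentrations and also retinol and fatty alcohols. Pair-fed control libraries had 158, 120 and 161 CPM and ethanol-fed control libraries 74.1, 47.1 and 81.4 CPM. The groups did not overlap, and the change was -1.13 ± 0.26 (log2 ± SE, adjusted p = 0.0213). Overexpressing mice had 310, 253 and 303 CPM when pair-fed and 141, 151 and 110 CPM on ethanol. These groups were also apart, with a change of -1.11 ± 0.26 (adjusted p = 0.0396). Knockout mice had 78.8, 173 and 155 CPM when pair-fed and 110, 103.5 and 135 CPM on ethanol. Here the libraries overlapped, because pair-fed knockout replicate 1 was the lowest of the 6, and the change was -0.15 (95% interval -0.69 to 0.38, adjusted p = 0.742). Both calls were close to the threshold. The call in control mice was lost without replicate 1 (adjusted p = 0.0629) or 3 (0.0800) of the pair-fed group or replicate 2 of the ethanol-fed group (0.131), and with the sex chromosome term (-1.25, 0.205). The call in overexpressing mice was lost without any 1 of its 6 libraries (0.0633 to 0.187). Without 1 library the change was -1.28 to -0.89 in control mice and -1.20 to -0.97 in overexpressing mice. In knockout mice it was then -0.50 to 0.06.

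Adh1, the class I enzyme that carries most hepatic ethanol oxidation at moderate concentrations, showed no such change. In control mice it was at 1609, 3724 and 2568 CPM when pair-fed and at 1429, 2647 and 2419 CPM on ethanol. In overexpressing mice it was at 1546, 1897 and 1843 CPM and then 1983, 2080 and 1485 CPM. The groups overlapped in both genotypes, with changes of -0.25 (95% interval -0.87 to 0.37) and 0.06 (-0.56 to 0.68). In knockout mice it was 3078, 2587 and 2314 CPM when pair-fed and 1425, 1536 and 2581 CPM on ethanol, a change of -0.57 (-1.19 to 0.05) that turned to 0.37 under the sex chromosome term. The 5 libraries with Xist reads held 2314 to 3724 CPM of Adh1. The 4 pair-fed libraries with Y-linked reads, which are the overexpression libraries and control replicate 1, held 1546 to 1897 CPM. Genotype differs between these sets too. The term for the sex chromosome genes, which the pair-fed controls alone set, was 0.94 ± 0.40 for Adh1 (adjusted p = 0.798).

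Adh5, the class III enzyme, acts chiefly as a glutathione-dependent formaldehyde dehydrogenase and oxidises ethanol poorly. It was at 764 ± 14.1 CPM in pair-fed and 757 ± 21.2 CPM in ethanol-fed control mice (mean ± SD, n = 3), a change of -0.01 with a 95% interval of -0.30 to 0.27. Its change was -0.13 (-0.42 to 0.15) in knockout and -0.14 (-0.42 to 0.15) in overexpressing mice. These are the narrowest intervals of the 10 enzymes. Knockout libraries held 728 ± 21.7 CPM when pair-fed and 663 ± 16.4 CPM on ethanol, without overlap, and 16.9% of all genes lay lower in that way. Against control mice the knockout difference was -0.07 (-0.35 to 0.21) on the pair-fed diet and -0.19 (-0.47 to 0.09) on ethanol. Knockout libraries lay below control libraries without overlap on both diets, at 707 to 751 against 752 to 780 CPM when pair-fed. On ethanol they held 645 to 677 against 735 to 778 CPM. The share of all genes that lay lower in this way is not given here.

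The alcohol dehydrogenase genes lie side by side on chromosome 3 in the RefSeq table, in the order Adh7, Adh1, Adh6a, Adh6b, the pseudogene Adh6-ps1, Adh4 and Adh5, between Trmt10a and Metap1 with the transcript 4930579F01Rik before Adh7. Adh6a and Adh6b were too low to test. Of the 5 that could be tested, Adh4 alone passed with ethanol in control and overexpressing mice. The neighbours of Adh4 are Adh6-ps1 and Adh5, and Adh5 changed by -0.01 and -0.14 in those genotypes. Adh6-ps1, and Adh7 at the far end, with means of 12.5 and 21.0 CPM in pair-fed and 8.04 and 13.2 CPM in ethanol-fed control mice, changed by -0.76 and -0.58 in control mice and by 0.39 and 0.36 in overexpressing mice (adjusted p from 0.381 to 0.781). Outside the cluster, Metap1 changed by 0.34 and 0.00 in these genotypes. Reads of the closely related Adh genes could be shared between amplicons, which was not tested here.

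Aldh3a2 encodes the fatty aldehyde dehydrogenase of the endoplasmic reticulum and peroxisome, which oxidises long-chain aldehydes and is the enzyme lost in Sjögren-Larsson syndrome. Control mice had 747, 640 and 593 CPM when pair-fed and 232, 453 and 430 CPM on ethanol. Knockout mice went from 652, 745 and 899 CPM to 337, 328 and 414 CPM, and overexpressing mice from 797, 904 and 702 CPM to 469, 421 and 221 CPM. Every one of the 9 pair-fed libraries (593 to 904 CPM) lay above every one of the 9 ethanol-fed libraries (221 to 469 CPM). Aldh3a2 was the single member with this separation, which 1.18% of all genes showed in that direction. The 4 pair-fed libraries with Y-linked reads held 702 to 904 CPM.

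The change of Aldh3a2 was -0.88 ± 0.26 in control (log2 ± SE, adjusted p = 0.0820), -1.08 ± 0.26 in knockout (0.0143) and -1.17 ± 0.26 in overexpressing mice (0.0353). The knockout call was lost without pair-fed replicate 3 (0.0599) or ethanol-fed replicate 1 (0.0543) or 2 (0.0568), and with the sex chromosome term (-1.36, 0.564). In overexpressing mice the call held only without ethanol-fed replicate 1 (adjusted p = 0.0245), and without any other library the adjusted p was 0.0763 to 0.188. The averaged change passed whichever of the 18 libraries was left out (-1.12 to -0.93). In the knockout response 7 of 8 Kupffer cell markers also fell (9.9% of all genes passed in it). Their summed level was 438 to 543 CPM in pair-fed and 155 to 198 CPM in ethanol-fed knockout mice, with none of the 8 at 0 in any library. Diet runs with the pattern of sex chromosome genes here too. The part of these markers in the knockout values was not tested. In control mice the same 8 markers summed to 403 to 444 CPM when pair-fed and 269 to 499 CPM on ethanol. In overexpressing mice they summed to 258 to 556 CPM and 344 to 379 CPM, with none past the test. In bulk liver RNA, fewer cells of a type and less RNA per cell cannot be told apart.

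The 3 other aldehyde dehydrogenases gave no call with ethanol. Aldh2, the mitochondrial enzyme for acetaldehyde, was at 4456 ± 455 CPM in pair-fed and 4470 ± 933 CPM in ethanol-fed control mice, and its changes were -0.01 (95% interval -0.49 to 0.47) in control, 0.07 (-0.41 to 0.55) in knockout and -0.32 (-0.80 to 0.16) in overexpressing mice. Aldh1b1, a second mitochondrial acetaldehyde enzyme, was barely read. It had 3.21 to 11.9 CPM over the 18 libraries. Its changes were -0.24 (-1.13 to 0.64) in control, -0.24 (-1.12 to 0.64) in knockout and 0.03 (-0.85 to 0.92) in overexpressing mice. Changes within these intervals are not excluded. Its highest values were 11.1 CPM in pair-fed control replicate 2, 11.9 CPM in pair-fed knockout replicate 1 and 10.3 CPM in pair-fed overexpression replicate 2.

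Aldh1a1, the cytosolic retinaldehyde and aldehyde dehydrogenase, varied widely within groups. Control libraries had 1342, 720 and 498 CPM when pair-fed and 292, 807 and 1221 CPM on ethanol. Overexpression libraries had 1001, 1104 and 1440 CPM and then 1516, 1188 and 763 CPM. Both pairs of groups overlapped, with changes of -0.25 (-1.12 to 0.63) and -0.07 (-0.95 to 0.81). The 5 libraries with Xist reads held 400 to 720 CPM. The 4 other pair-fed libraries, which are the overexpression libraries and control replicate 1, held 1001 to 1440 CPM, so genotype differs between these sets too. The term for the sex chromosome genes was -1.16 ± 0.58 (adjusted p = 0.882). In the knockout mice the pattern of sex chromosome genes runs with diet. There Aldh1a1 was at 498, 400 and 687 CPM when pair-fed and at 738, 587 and 983 CPM on ethanol. The change was 0.54 (-0.33 to 1.42), and -0.62 with that term.

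Cyp2e1, the ethanol-oxidising P450, had a lower mean on ethanol in each genotype and passed in none. Control libraries held 13068, 6302 and 12581 CPM when pair-fed and 5147, 5224 and 9183 CPM on ethanol, and knockout libraries 4856, 9339 and 11673 CPM and then 6747, 4417 and 5795 CPM. Overexpression libraries held 14844, 5979 and 8823 CPM when pair-fed and 6807, 4965 and 7614 CPM on ethanol. The groups overlapped in each genotype. The changes were -0.69 ± 0.39 (adjusted p = 0.359), -0.54 ± 0.39 (0.396) and -0.54 ± 0.39 (0.570), and the 95% intervals reached up to 0.12, 0.27 and 0.27. The average over genotypes was -0.59 ± 0.22 (adjusted p = 0.0680). It passed the test under quantile normalization (-0.86, 0.00588), with array weights (-0.68, 0.0166), with a replicate block (-0.59, 0.0475) and in DESeq2 (-0.59, 0.0377), and in none of the 9 other settings, which include edgeR (0.0780) and the sex chromosome term (-0.90, 0.301). It also passed without replicate 2 of the pair-fed (-0.70, 0.0315) or replicate 3 of the ethanol-fed controls (-0.68, 0.0422), pair-fed knockout replicate 1 (-0.71, 0.0248) or pair-fed overexpression replicate 2 (-0.69, 0.0347).

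In a list of 10 genes of the microsomal P450 chain and of other P450s, none passed in a single genotype. In the average 2 passed, both as higher, where 20.5% of all genes passed in either direction and 13.3% passed as lower. They were Cyp2c29 (1.54 ± 0.30, adjusted p = 0.00137) and Cyp4a14 (0.52 ± 0.17, 0.0316). Cyp2c29, a drug-metabolising P450, was at 1319 ± 620 CPM in pair-fed and 3905 ± 191 CPM in ethanol-fed overexpressing mice. Markers of pericentral hepatocytes, the zone where Cyp2e1 is normally highest, summed to 2902 to 5112 CPM in pair-fed and 2395 to 4824 CPM in ethanol-fed control mice, and to 3463 to 4411 and 3037 to 3877 CPM in overexpressing mice.

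Cat encodes catalase. Control libraries had 186, 166 and 113.03 CPM when pair-fed and 76.4, 122 and 146 CPM on ethanol, and knockout libraries 162, 114.95 and 139 CPM and then 116, 82.8 and 136 CPM. The groups overlapped in both genotypes, with changes of -0.45 (-1.003 to 0.10) and -0.33 (-0.88 to 0.23). Overexpression libraries had 234, 209 and 235 CPM when pair-fed and 163, 110 and 84.4 CPM on ethanol, with no overlap and a change of -0.97 ± 0.26 (adjusted p = 0.0744). That value passed with array weights (-0.98, 0.0205), in a fit to the 6 libraries alone (0.0450) and without ethanol-fed overexpression replicate 1 (-1.22, 0.0381). The 5 libraries with Xist reads held 113.03 to 166 CPM of Cat. The 4 other pair-fed libraries, which are the overexpression libraries and control replicate 1, held 186 to 235 CPM, so genotype differs between these sets too. The term for the sex chromosome genes was -0.44 ± 0.39 and did not pass.

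Acss2 stood apart in 2 libraries, pair-fed control replicate 2 with 1213 CPM and pair-fed knockout replicate 1 with 1368 CPM, both with Xist reads. It was at 63.6 to 268 CPM in the other 16. The other libraries of those groups had 126.01 and 130.6 CPM, and 141 and 216 CPM. Pair-fed overexpression replicate 2, with Y-linked reads, had the highest Acss2 of its group (232 CPM). That library and the 2 with high Acss2 each had the highest Adh1 and Aldh1b1 and the lowest Adh4 and Cyp2e1 of their group. What they share was not tested. No comparison passed for Acss2, and the intervals were wide, such as -2.12 to 0.97 for the ethanol response in control mice. In overexpressing mice the groups did not overlap, at 125.7, 232 and 156 CPM when pair-fed and 93.7, 92.7 and 63.6 CPM on ethanol (change -1.005 ± 0.74, adjusted p = 0.579). The average over genotypes was -0.92 ± 0.43 (0.133), and passed in edgeR (-1.28, 0.0436) and DESeq2 (-1.29, 0.0492). Leaving out either of the libraries with high Acss2 brought it to -0.56 (the control) or -0.59 (the knockout), and the sex chromosome term to 0.0004. With Adh4, Aldh3a2 and Cat this made 4 of 10 enzymes whose ethanol-fed overexpression libraries lay below all pair-fed ones, where 14.6% of all genes did. Control and knockout mice had 2 such enzymes each, against 14.4% and 16.9%.

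Genotype gave no call on either diet. Of the 10 enzymes, 0 passed for knockout against control, where 0.00853% of all genes passed on the pair-fed diet and 0.0171% on the ethanol diet. None passed for overexpression against control (0.145% and 0.102% of all genes) or for overexpression against knockout on ethanol (1.88%). At an unadjusted p under 0.05 limma gave 0 and 1 enzymes for knockout (3.13% and 8.34% of all genes), 2 and 1 for overexpression (8.46% and 8.84%) and 0 for overexpression against knockout (15.4%). In edgeR and in DESeq2 the count at an adjusted p under 0.05 was 0 in each of these 5 comparisons. Array weights turned 1 into a call, Adh4 in overexpression on ethanol (1.13, adjusted p = 0.0220).

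**Figure D3:**
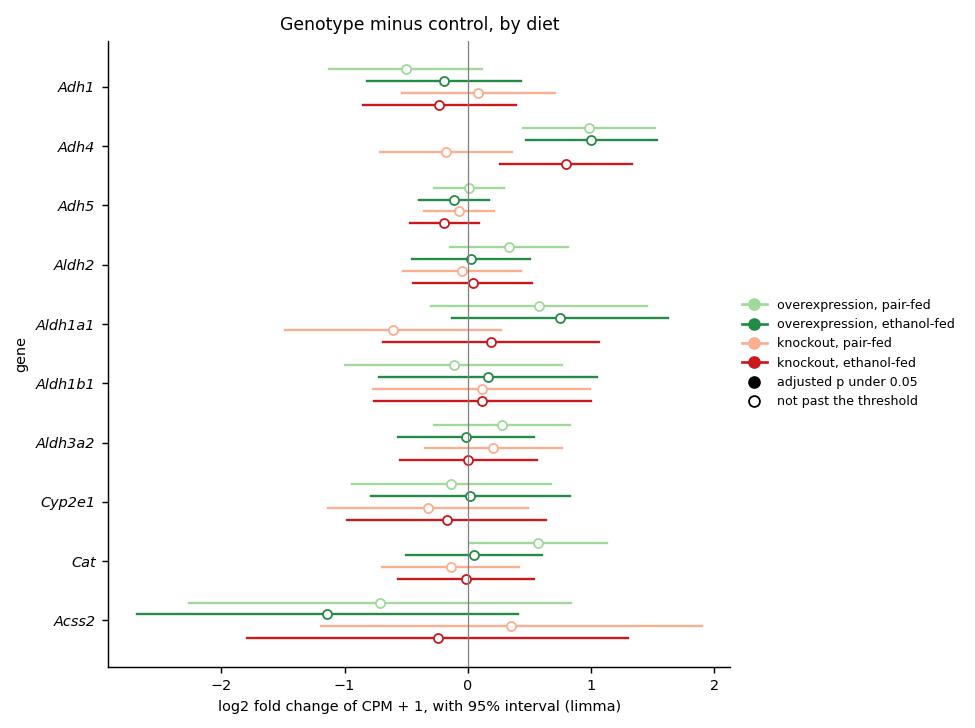
Log2 fold change of CPM + 1 for each enzyme between genotype and control, with 95% intervals from limma, for overexpression (greens) and knockout (reds) on each diet. No value has an adjusted p under 0.05. The Adh4 values of overexpression lie near 1 on both diets, while that of knockout is -0.17 when pair-fed and 0.80 on ethanol.

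Adh4 was the enzyme with the smallest adjusted p in overexpressing mice. On the pair-fed diet, 310, 253 and 303 CPM stood against 158, 120 and 161 CPM in control, a difference of 0.98 ± 0.26 (adjusted p = 0.174). The overexpression libraries all had Y-linked reads, while the controls at 120 and 161 CPM had Xist reads, so genotype and that pattern are mixed here. On ethanol, 141, 151 and 110 CPM stood against 74.1, 47.1 and 81.4 CPM, a difference of 1.00 ± 0.26 (adjusted p = 0.149). The libraries were apart on both diets. On the pair-fed diet Cat was the other enzyme without overlap in that direction (2 of 10, against 6.27% of all genes), and its difference was 0.57 ± 0.26 (adjusted p = 0.575). On ethanol Adh4 was the 1 enzyme that lay higher without overlap (7.43% of all genes) and Acss2 the 1 that lay lower (7.54%).

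Averaged over both diets, a comparison added after the data had been seen, Adh4 was higher in overexpressing mice by 0.99 ± 0.18 (adjusted p = 0.0278). It was 1 of 7 genes (0.0597% of those tested) that passed as higher in it. With 1 library left out the value was 0.87 to 1.07. The call was lost without any 1 of the 3 pair-fed overexpression libraries, ethanol-fed overexpression replicates 1 and 2, pair-fed control replicates 2 and 3 and ethanol-fed control replicate 2 (adjusted p 0.0561 to 0.103). It was also lost without the filter (0.251), with the sex chromosome term (0.341) and in the 13 libraries with Y-linked reads (0.160), where 1 pair-fed control library remains. A replicate block (0.0517) and a block for the range of the library barcodes (0.0524) also ended it. DESeq2 gave an adjusted p of 0.000484 and edgeR 0.0345. The order of the group means was pair-fed overexpression (289 ± 31.6 CPM), pair-fed control (146 ± 23.0), pair-fed knockout (135 ± 49.9), ethanol-fed overexpression (134 ± 21.7), ethanol-fed knockout (116 ± 16.5) and ethanol-fed control (67.5, with libraries at 47.1 to 81.4). The 4 middle groups overlapped. The first lay above all other libraries, and the last below all but pair-fed knockout replicate 1.

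Levels of Adh4 and Yap1 were set side by side in each library. Pair-fed overexpression replicate 1, whose Yap1 of 57.6 CPM does not match its label, had the highest Adh4 of all 18 libraries. Knockout mice on ethanol, with 3.34 to 5.08 CPM of Yap1, had more Adh4 than control mice on ethanol in every library, a difference of 0.80 ± 0.26 (adjusted p = 0.405; 8.23% of all genes lay higher without overlap). Genes known to be higher in male liver, a list of 9 without any of the 10 enzymes, were read in these groups too. They summed to 5198 to 8245 CPM in pair-fed overexpression and 360 to 4495 CPM in pair-fed control, which holds both patterns of sex chromosome genes. On ethanol they summed to 1330 to 3199 CPM in overexpression, 748 to 2192 CPM in control and 2670 to 4539 CPM in knockout. There the overexpression and control sums overlapped, and the knockout and control sums did not. Of the 9, 2 fell with ethanol in overexpressing mice and none passed for overexpression averaged over the diets. On ethanol, genes known to be higher in female liver summed to 659 to 1181 CPM in overexpression. They summed to 1239 to 1613 CPM in control and 867 to 1276 CPM in knockout. The part of these genes, and of the lower sum of hepatocyte markers in overexpressing mice, in the Adh4 values was not tested.

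**Figure D4:**
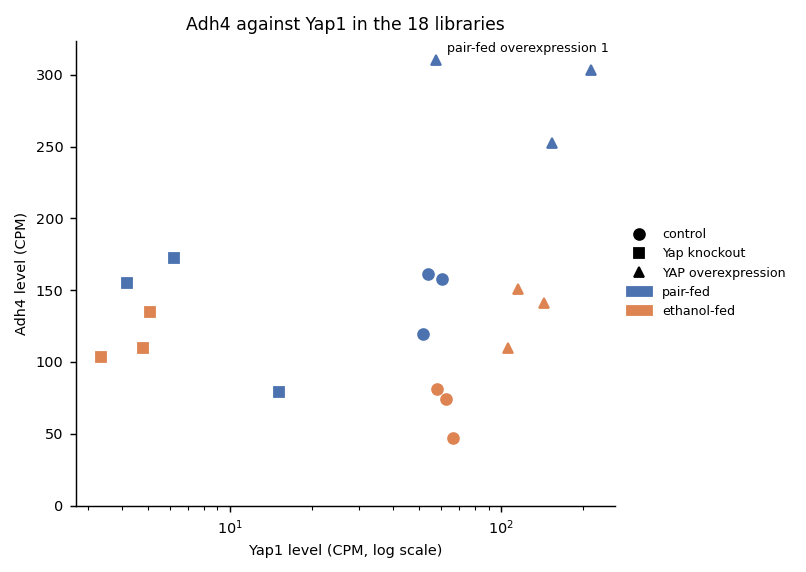
Adh4 (CPM, linear axis from 0) against Yap1 (CPM, log axis) in the 18 libraries; the shape gives the genotype and the colour the diet. Pair-fed overexpression replicate 1 combines a Yap1 level like that of control (57.6 CPM) with the highest Adh4 (310 CPM).

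Whether the ethanol response differed between genotypes was tested as an interaction. Of the 10 enzymes 0 passed for knockout against control and 0 for overexpression against control, where 0% of all genes passed in both. At an unadjusted p under 0.05 there were 1 and 0 enzymes (5.68% and 7.23% of all genes). At an adjusted p under 0.05 edgeR and DESeq2 gave 0 in both. The 1 enzyme was Adh4, whose response was weaker in knockout than in control mice by 0.97 ± 0.36 (adjusted p = 0.864). With 1 library left out this difference was 0.63 to 1.19. Diet runs with the pattern of sex chromosome genes in knockout mice, and in part in control mice. For overexpression the difference in Adh4 response was 0.02 (95% interval -0.74 to 0.77). Aldh3a2 differed by -0.20 (-0.98 to 0.58) and -0.29 (-1.07 to 0.49), and Cat by 0.12 (-0.66 to 0.91) and -0.52 (-1.30 to 0.26).

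Around the 10 enzymes, 8 lists of pathway genes, none of them a member, were read in the same model; they were chosen with earlier results of these libraries known. Their counts stand against 2.7%, 9.9% and 1.15% of all genes past the threshold in control, knockout and overexpressing mice, and 20.5% in the average, 13.3% as lower. The average includes the knockout response, where diet and the pattern of sex chromosome genes cannot be told apart. List genes were not read under the sex chromosome term. The other alcohol dehydrogenases and alcohol or aldehyde reductases had 0 of 7 tested genes past the threshold in each genotype, and 3 of 7 fell in the average. They were Akr7a5 (-0.54 ± 0.12, adjusted p = 0.00456) and Akr1a1 (-0.32 ± 0.10, 0.0333), both aldehyde reductases, and Adhfe1 (-0.31 ± 0.10, 0.0439), a mitochondrial hydroxyacid-oxoacid transhydrogenase. Of 11 other aldehyde dehydrogenases 1 fell in knockout mice, a share near that of all genes. It was Aldh9a1, the enzyme that oxidises trimethylaminobutyraldehyde on the way to carnitine, at 52.3 ± 11.3 CPM when pair-fed and 30.5 ± 2.44 CPM on ethanol (-0.74 ± 0.19, adjusted p = 0.0199). In the average, 3 of 11 fell, namely Aldh9a1, Aldh8a1 and Aldh6a1, by -0.57, -0.44 and -0.32.

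**Figure D5:**
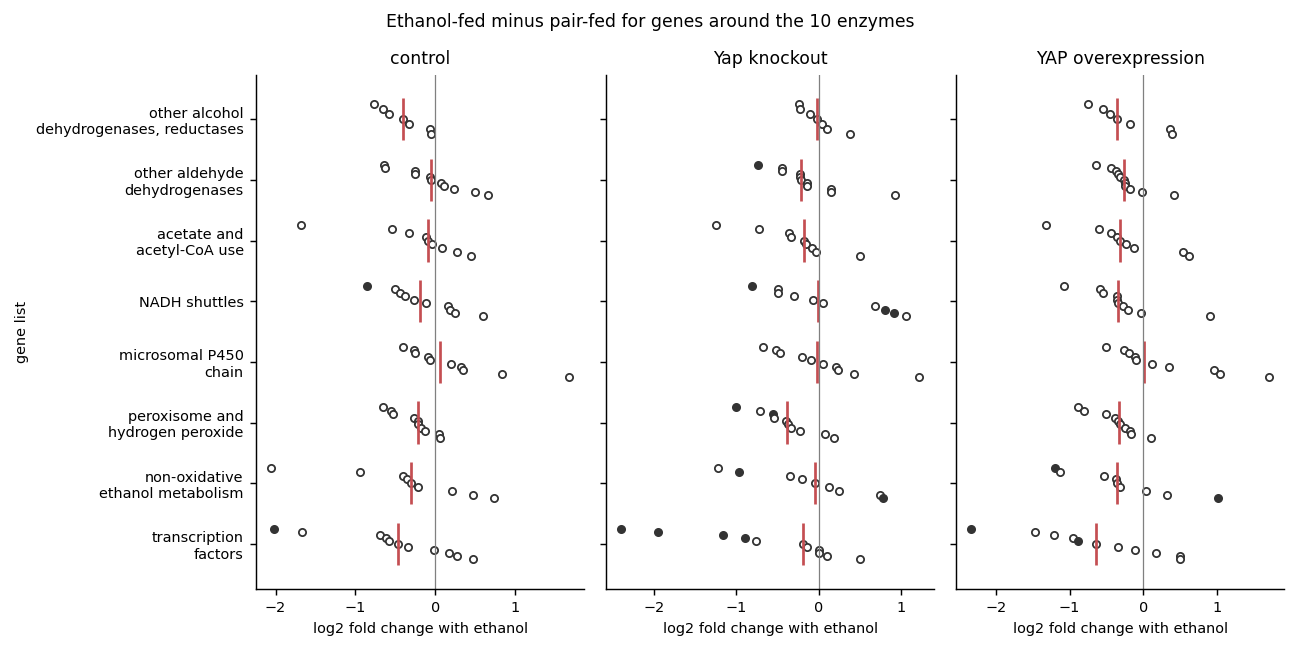
Log2 fold change of CPM + 1 with ethanol for the tested genes of 8 lists around the 10 enzymes, in control, knockout and overexpressing mice. Points are genes, filled where the adjusted p from limma is under 0.05, and red bars are list medians. Filled points are few: 2 in control, 12 in knockout and 4 in overexpressing mice.

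Oxidation of ethanol and acetaldehyde makes NADH in the cytosol and in mitochondria, and shuttles carry its hydrogen across the mitochondrial membrane. Of 10 shuttle genes 1 fell in control mice, Slc25a13, the aspartate-glutamate carrier citrin of the malate-aspartate shuttle. It went from 330 ± 61.6 to 181 ± 17.1 CPM (-0.85 ± 0.22, adjusted p = 0.0422). In knockout mice it fell too (-0.81, 0.0240), while Gpd1 (0.92, 0.0284) and Gpd2 (0.81, 0.0358), the 2 enzymes of the glycerol phosphate shuttle, rose. In the average 3 of 10 fell, Slc25a13 by -0.73, the oxoglutarate carrier Slc25a11 by -0.40 and the cytosolic malate dehydrogenase Mdh1 by -0.38. None passed in overexpressing mice, where Slc25a13 was at 333 ± 53.9 and 228 ± 40.7 CPM. On the ethanol diet overexpressing mice had less Got1 than knockout mice, the cytosolic aminotransferase of the malate-aspartate shuttle (126.8 ± 42.7 against 504 ± 258 CPM; -1.93 ± 0.42, adjusted p = 0.0207). They had more Nnt, the proton-driven transhydrogenase that makes NADPH in mitochondria (226 ± 18.5 against 77.5 ± 3.13 CPM; 1.53 ± 0.35, 0.0268).

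Of 10 genes of peroxisomes and hydrogen peroxide besides Cat, 0 passed in control, 2 fell in knockout and 0 passed in overexpressing mice, and 5 fell in the average with all 10 values below 0 (median -0.38 against -0.07 over all genes). Among them were Sod2, the mitochondrial superoxide dismutase (-0.44, adjusted p = 0.00389), Hao1, a peroxisomal oxidase of glycolate that makes hydrogen peroxide (-0.52, 0.00291), the import receptor Pex5 (-0.38, 0.0147) and the division factor Pex11a (-0.62, 0.0236). Hao1 went from 301 ± 31.9 to 151 ± 27.5 CPM in knockout mice (adjusted p = 0.00321). On ethanol it was higher in overexpressing than in knockout mice (298 ± 26.5 CPM; 0.99 ± 0.19, 0.0111).

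Acetate and acetyl-CoA use had 0 of 9 genes past the threshold in each genotype. In the average Crat, carnitine acetyltransferase, fell (-0.62, adjusted p = 0.0116) and Slc16a1, a monocarboxylate carrier that also takes acetate, rose (0.52, 0.0227). Non-oxidative ethanol metabolism had 0 of 9 in control mice, and 1 lower and 1 higher in each of the other genotypes. These were Ces1e, a carboxylesterase, which fell in knockout (-0.97, adjusted p = 0.0260) and overexpressing mice (-1.19, 0.0346), and Sult1a1, a sulfotransferase, which rose in both (0.79, 0.0327; 1.01, 0.0346). Sult1a1 went from 644 ± 159 to 1295 ± 290 CPM in overexpressing mice.

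Of 11 transcription factors known to act on promoters of these enzymes, 1 fell in control mice, 4 in knockout and 2 in overexpressing mice. Srebf1, the activator of lipogenic genes and of Acss2, fell in control (-2.02 ± 0.37, adjusted p = 0.00782) and knockout mice (-2.40, 0.000685). It was at 264 ± 58.0 and 95.4 ± 26.0 CPM in overexpressing mice, where it did not pass. Dbp, a clock-driven factor, fell in knockout (-1.96, adjusted p = 0.0106) and overexpressing mice (-2.33, 0.0173), Ppara (-1.16, 0.00582) and Cebpa (-0.90, 0.0327) in knockout mice, and Nr1i2, the xenobiotic receptor PXR, in overexpressing mice (-0.89, 0.0395). None passed as higher in any genotype. In the average the same 5 factors fell, Dbp by -1.99, Srebf1 by -1.96, Ppara by -0.82, Cebpa by -0.64 and Nr1i2 by -0.57.

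For each enzyme the 3 genes with the most similar pattern were taken by Pearson's r of log2(CPM + 1) over the 18 libraries, among 5227 genes with a mean of at least 20 CPM. These libraries share diet, genotype and sex structure, so r is a description only. Adh4 was most like Amotl2, a YAP target that binds YAP (r = 0.85), Hdac11 (0.83) and Dbp (0.82). Around group means those values were 0.69, 0.76 and 0.46. Amotl2 fell with ethanol in all 3 genotypes (-1.36, -1.26 and -1.25, adjusted p = 0.0120, 0.00722 and 0.0306), and in knockout mice it went from 53.0 ± 14.5 to 21.5 ± 6.74 CPM while Adh4 went from 135 ± 49.9 to 116 ± 16.5 CPM. For overexpression averaged over the diets, Amotl2 differed by 0.80 (adjusted p = 0.102) and Dbp by 1.45 (0.0685).

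Aldh3a2 was most like Ces1e (r = 0.94), Abcd3, the peroxisomal carrier of fatty acyl-CoA (0.93), and Sgms2, a sphingomyelin synthase (0.90). Over the 13 libraries with Y-linked reads the values were 0.94, 0.93 and 0.90, and around group means 0.78, 0.76 and 0.83. Cat was most like Nipsnap1 (0.94), Srr (0.86) and Car3 (0.86), Cyp2e1 like Acsm3 (0.93), Imp3 (0.84) and Pcbp2 (0.83), and Aldh1a1 like Dcaf11 (0.93), Opa1 (0.90) and Msra (0.88). Acss2 was most like Rdh11 (0.96), Chrna4 (0.94) and Pmvk, an enzyme of sterol synthesis (0.93), and these values rest in part on the 2 libraries with high Acss2. Adh1 was most like Vnn3 (0.86), Pmvk (0.80) and Lect2 (0.80), Adh5 like Ak3 (0.85), Setd3 (0.82) and Apol9b (0.79), Aldh2 like Poldip2 (0.88), Kat2b (0.82) and Snora23 (0.80), and Aldh1b1 like Napa (0.91), Nectin1 (0.84) and Pxdc1 (0.83).

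Among the 10 enzymes themselves, Aldh3a2 and Cat had the highest r over the 18 libraries (0.79; 0.94 over the 13 with Y-linked reads and 0.71 around group means). Adh4 and Aldh3a2, the 2 that passed within genotypes, had r = 0.59, and 0.22 around group means. Aldh1a1 and Cat had 0.63, and 0.86 around group means. Aldh1b1 and Acss2 had 0.74, and 0.84 around group means. Cyp2e1 went the other way around group means, with -0.59 to Acss2 and -0.70 to Aldh1b1. Adh1 and Adh4, both in the gene cluster, had r = -0.21.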

How the data were processed

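RNA of 18 mouse liver libraries was read with the Ion AmpliSeq mouse transcriptome panel, per the labels. The deposited series table holds CPM scaled by the authors to the library total. Its values were whole reads within 0.02 reads (100.0% of values), and 1 read is 0.172 to 0.214 CPM. Each library's own file has log2(RPM + 1) made with ampliSeqRNA 5.10.1.2, per the file headers, and equal log2(CPM + 1) within 2.0e-06. For the aligner and the build, nothing is given in the sources used here.

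The filter asked for 1 CPM or more in 3 or more libraries and left 11720 genes, all 10 enzymes among them. In R 4.3.3, limma 3.58.1 (trended eBayes after lmFit) estimated the 6 group means of log2(CPM + 1) from all 18 libraries. All adjusted p-values are limma's, two-sided and adjusted by Benjamini-Hochberg over the kept genes within a comparison, unless edgeR or DESeq2 is named. Of the 12 comparisons, 10 were set first and 2 (the averages) were added with the data already seen. The 10 enzymes and the lists were chosen with earlier results of these data known. Named genes are the 10 enzymes, list genes that passed, genes of the Adh cluster and beside it and the 3 most similar genes of each enzyme; Cyp2c29, Got1, Nnt and others given with levels were picked after their values were seen.

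Alternatives were no filter, 10 CPM (7736 genes), pseudocounts of 0.1 and 10, TMM, quantile normalization, array weights, replicate and barcode blocks, a fit to the compared libraries alone, edgeR 4.0.16 and DESeq2 1.42.0 run on recovered reads, and leaving out each library. A sex chromosome term and the 13 libraries with Y-linked reads were also tried. Only the pair-fed controls hold both patterns, so they alone set that term. No 2 replicates agreed within sampling noise (chi-square per degree of freedom 9.9 to 57.4). The scripts were tested on simulated data. The values of 1 list gene are not reported here.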

Additional observations from a re-analysis of the deposited data

How the results depend on the processing

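Within the comparisons, 1, 1 and 2 enzymes passed with ethanol in control, knockout and overexpressing mice, 3 in the average and 1 for overexpression averaged over diets. Without the filter the counts were 0 in control, knockout and overexpressing mice and 0 for averaged overexpression. They were 0 in control and overexpressing mice with TMM and with edgeR, and 1 in overexpressing mice with quantile normalization. The sex chromosome term gave 0 in control and knockout mice, 0 for averaged overexpression and 1 in the average. The 13 libraries with Y-linked reads gave 0 in control mice and 0 for averaged overexpression, and the control libraries fitted alone gave 0. The barcode block gave 0 for averaged overexpression, array weights gave 1 for overexpression on ethanol (otherwise 0), and in the average DESeq2 gave 5, quantile normalization, array weights, the replicate block and edgeR 4, and no filter 2. Leaving out each library gave 0 to 1 in control, 0 to 1 in knockout and 0 to 2 in overexpressing mice, 3 to 4 in the average and 0 to 1 for averaged overexpression.

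Replicate numbers did not pair the libraries: over 45 same-numbered pairs r was -0.27 to 0.28 (median 0.03), with 6 over 0.1. With a replicate block the count for averaged overexpression was 0.

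A sign change is counted where the value exceeded its SE or was called. With the sex chromosome term these turned: in knockout mice on ethanol Adh1 (0.37), Aldh1a1 (-0.62) and Acss2 (0.48), for overexpression on the pair-fed diet Adh1 (0.13) and Aldh1a1 (-0.20), equally in the 13 libraries with Y-linked reads, and in the average Adh1 (0.27) and Acss2 (0.0004). Of all values, 2589 kept direction and side of the threshold, 48 lost it, 14 gained it and 9 turned. The knockout response and the average could not be fitted in the 13 libraries, which hold no pair-fed knockout. The causes were not tested. With 3 libraries a group, precision is the limit for Acss2, Aldh1a1 and Aldh1b1.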
